A study of Mus musculus with 13 samples.

Results

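The genes described here are 32 transcripts that mark cells of the vessel wall and the connective tissue, read in libraries made from sorted mouse alveolar macrophages. They were taken by name from a table of 43430 genes: 12 endothelial genes, 10 genes of fibroblasts and mural cells, and 10 matrix or matrix-linked genes that both compartments make. All 32 were present in the table. The question was whether they rise and fall together across the 4 groups and the single libraries, as transcripts carried over from other lung cells would.

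The 13 libraries came from male C57Bl/6 mice aged 10 weeks. The metformin PM group (3 libraries, numbered 1, 3 and 4 in the titles) drank metformin at 100 mg/kg/day for 24 h and then received 10 µg of particulate matter (PM), a standardised material from NIST, into the trachea. The vehicle PM group (3 libraries, 1 to 3) received the particles without the drug, the metformin PBS group (3 libraries, 1, 3 and 4) the drug and saline, and the vehicle PBS group (4 libraries, 1 to 4) neither drug nor particles. Macrophages were sorted by flow cytometry 24 h after instillation, and their polyadenylated RNA was sequenced. Nothing in the labels says which mice were sorted or sequenced on the same day, so a batch cannot be told apart from a group.

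Alveolar macrophages live on the air side of the alveolus, a thin wall away from capillary endothelium and the fibroblasts and pericytes of the interstitium. Endothelial cells are known by junction proteins such as PECAM1, VE-cadherin and claudin 5 and by receptors for VEGF and the angiopoietins. Fibroblasts make the fibrillar collagens and small leucine-rich proteoglycans, and both compartments lay down the basement membrane, whose backbone is type IV collagen. A sorted fraction can hold RNA of neighbouring cells as whole cells, fragments or free RNA, and macrophages can also transcribe some of these genes themselves.

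Depth was 6514625 to 8100538 counts per library in metformin PM, 6181613 to 7107452 in vehicle PM, 6169508 to 6434350 in metformin PBS and 5567481 to 6362497 in vehicle PBS. All 21 alveolar macrophage markers were read in every library, at a mean level per transcript length of 18.3 to 9890 RPKM (CPM per kilobase of exon, computed here), with a median of 379. Levels are otherwise given as CPM, counts scaled to a common library size. In such bulk samples, fewer cells of a type and less RNA per cell cannot be told apart.

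Per length, 30 of the 32 genes lay far below those markers. Fn1, which encodes fibronectin, averaged 170 RPKM over all libraries and Flt1, which encodes VEGF receptor 1, averaged 30.0 RPKM. The other 30 genes averaged 0 to 3.02 RPKM, with a median of 0.404. The top of that range was held by Mgp, the matrix Gla protein that restrains calcification, at 3.02 RPKM, followed by Sparc at 1.73 and Cldn5 at 1.67. Together these 30 genes took 255 to 969 counts per library, or 0.00376% to 0.0149% of all counts. Lum, which encodes the fibroblast proteoglycan lumican, had 0 counts in all 13 libraries, which allows a level of up to 0.035 CPM over the 85616379 counts of the series; that limit covers counting error only. Dcn, which encodes decorin, had 19 counts in all and Emcn, the endothelial sialomucin endomucin, 26.

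The filter on low counts kept 26 of the 32 genes for testing. Emcn, Dcn, Lum, Pdgfrb, Fbln1 and Serping1 were not tested. A further 5 genes, Egfl7, Esam, Ramp2, Col6a1 and Col6a2, passed only because of their levels in the metformin PM libraries, so a higher value there is built into their selection. Among the comparisons below, PM against PBS on metformin and metformin against vehicle after PM share the metformin PM libraries, and the difference of the PM effects uses all 4 groups, so the comparisons are not separate evidence. A gene is called where its adjusted p lies under 0.05 in edgeR's quasi-likelihood test with Benjamini-Hochberg adjustment over the 11906 genes tested, and fold changes are on the log2 scale with their standard error (SE).

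The metformin PM libraries held the highest levels of most of these transcripts. Leaving out Flt1 and Fn1, the summed level was 96.4, 113 and 151 CPM in the metformin PM libraries, 37.7, 59.2 and 94.5 CPM in the vehicle PM libraries, 54.8, 59.7 and 42.5 CPM in the metformin PBS libraries, and 76.1, 78.8, 43.8 and 45.6 CPM in the vehicle PBS libraries. The metformin PM mean was 2.29 times that of metformin PBS and 1.88 times that of vehicle PM, while the vehicle PM mean was 1.04 times that of vehicle PBS. No metformin PM library fell below any other, but the lowest of them, at 96.4 CPM, lay next to vehicle PM 3, at 94.5 CPM, and the SD within these groups was 27.8 and 28.6 CPM.

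**Figure D1:**
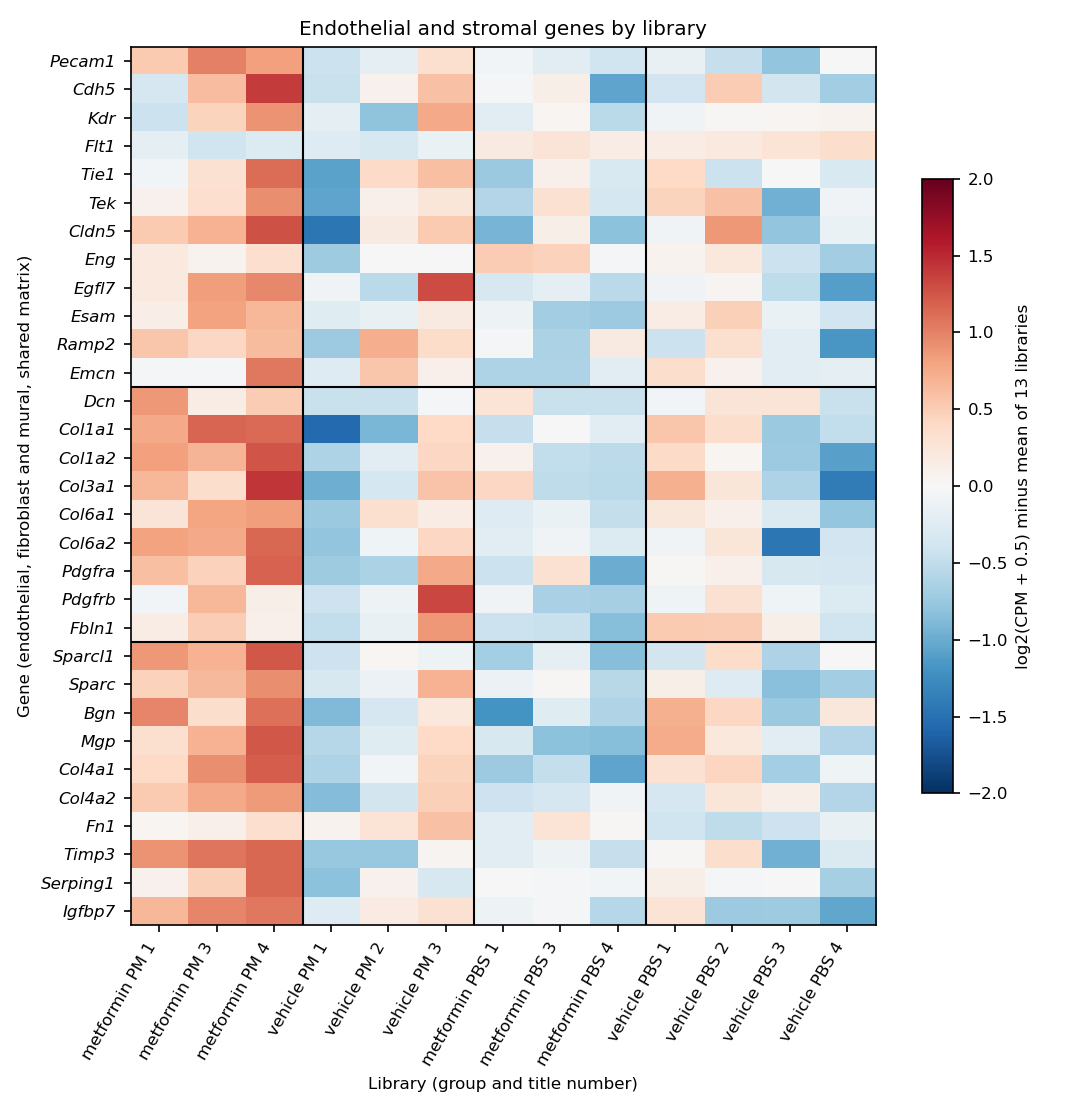
Level of each of the 31 genes with a count in each of the 13 libraries, as log2(CPM + 0.5) minus that gene's mean over the libraries; columns are libraries by group, rows are endothelial, fibroblast and mural, and shared matrix genes from top to bottom. The 3 metformin PM columns are red in most rows, though not in that of Flt1. In the row of Eng, metformin PBS 1 and 3 lie higher than they do.

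PM against PBS on metformin asked what the particles changed in mice that drank the drug. Of the 26 genes tested, 13 were higher and 1 was lower in metformin PM, where 7.18% of all genes tested were called higher and 5.6% lower (12.8% in all). Of the 21 genes that pass the filter without the metformin PM libraries too, 12 were higher and 1 was lower. Of the 14 called genes, 8 were still called without metformin PBS 4, metformin PM 3 or metformin PM 4, each left out alone. The median log2 fold change over the 26 was 1.25, against 0.0048 over all genes tested. That median includes the 5 genes whose selection favours this direction, and none is given without them.

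Pecam1 encodes the endothelial junction protein CD31. It had 5.09, 7.39 and 6.38 CPM in metformin PM libraries, 2.40, 2.95 and 4.39 CPM in vehicle PM libraries, 3.27, 2.87 and 2.46 CPM in metformin PBS libraries and 3.01, 2.35, 1.75 and 3.39 CPM in vehicle PBS libraries. The metformin PM values lay above all others. Pecam1 was higher in metformin PM than in metformin PBS by 1.13 (SE 0.255, adjusted p = 0.00578, edgeR), a call that held under all 22 alternatives, and higher than in vehicle PM by 0.96 (SE 0.247, adjusted p = 0.022), a call that held under 16 of 22 alternatives. The second call was lost without vehicle PM 1 or 2 or metformin PM 3 or 4 (0.77 to 0.95) and with DESeq2 (0.95, adjusted p = 0.0596), among others.

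Cldn5, which encodes claudin 5 of endothelial tight junctions, had 3.10, 3.57 and 5.6 CPM in metformin PM libraries, 0.424, 2.33 and 3.09 CPM in vehicle PM libraries, 0.818, 2.23 and 0.924 CPM in metformin PBS libraries and 1.90, 4.07, 0.957 and 1.79 CPM in vehicle PBS libraries. The metformin PM and metformin PBS values did not overlap, but vehicle PBS 2 lay above 2 of the 3 metformin PM values. The log2 difference of metformin PM from metformin PBS was 1.59 (SE 0.509, adjusted p = 0.0463, edgeR), and the call was lost without any 1 of 7 libraries (metformin PM 1, 3 or 4, metformin PBS 1 or 4, vehicle PM 2 or vehicle PBS 4), at values of 1.31 to 1.75, with limma-voom (adjusted p = 0.0608) and with scaling by library totals (adjusted p = 0.052). Esam, an adhesion molecule of endothelial junctions and platelets, had 1.24, 2.29 and 2.02 CPM in metformin PM libraries and 0.982, 0.478 and 0.462 CPM in metformin PBS libraries. It was called at 1.5 (SE 0.434, adjusted p = 0.0271, edgeR) and is 1 of the 5 genes whose selection favours that direction; without metformin PBS 3 or 4 or metformin PM 3 or 4 it was not called, at 1.29 to 1.43, and neither was it with DESeq2 (1.53, adjusted p = 0.113).

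Apart from Flt1, described next, the other endothelial genes tested did not pass. Cdh5, which encodes VE-cadherin, spread widely, with 3.10, 6.50 and 11.5 CPM in metformin PM libraries, 2.83, 4.35 and 6.34 CPM in vehicle PM libraries, 3.93, 4.46 and 1.69 CPM in metformin PBS libraries and 3.01, 5.95, 3.03 and 2.32 CPM in vehicle PBS libraries. Only metformin PM 3 and 4 stood above every other library. Its difference of metformin PM from metformin PBS was 1.03 (SE 0.424, adjusted p = 0.127, edgeR). Kdr (VEGF receptor 2), Tie1 (a partner of the angiopoietin receptor), Tek (that receptor, TIE2), Egfl7 (a secreted factor of endothelium) and Ramp2 (a subunit of the adrenomedullin receptor) lay at fitted differences of 0.74, 1.01, 0.79, 1.36 and 0.91 without a call. Eng, which encodes the TGF-beta coreceptor endoglin, was not higher than in metformin PBS. It had 5.71, 5.22 and 6.38 CPM in metformin PM libraries and 7.2, 7.01 and 4.77 CPM in metformin PBS libraries. That log2 difference was -0.14 (SE 0.24, adjusted p = 0.778, edgeR). The vehicle PM libraries, at 2.83, 4.98 and 4.88 CPM, all lay below metformin PM. Against them Eng stood at 0.46 without a call (SE 0.258, adjusted p = 0.342, edgeR).

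Flt1 was lower with PM. It had 351, 304 and 331 CPM in metformin PM libraries, 333, 318 and 364 CPM in vehicle PM libraries, 452, 479 and 443 CPM in metformin PBS libraries and 442, 456, 481 and 509 CPM in vehicle PBS libraries. All PM libraries lay below all PBS libraries, whichever water the mice drank. Flt1 was lower with PM in both arms, at -0.48 on metformin (SE 0.0663, adjusted p = 6.57e-05, edgeR) and -0.48 on vehicle (SE 0.0626, adjusted p = 6.63e-05), and both calls held under all 22 alternatives. The difference between these effects was -0.00020 with an SE of 0.0905. Its level stood apart from those of the other endothelial genes, whose summed level without it was 26.4, 36.7 and 49.6 CPM in metformin PM libraries, 13.8, 23.8 and 34.1 CPM in vehicle PM libraries, 16.0 to 24.5 CPM in metformin PBS libraries and 16.1 to 28.8 CPM in vehicle PBS libraries.

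**Figure D2:**
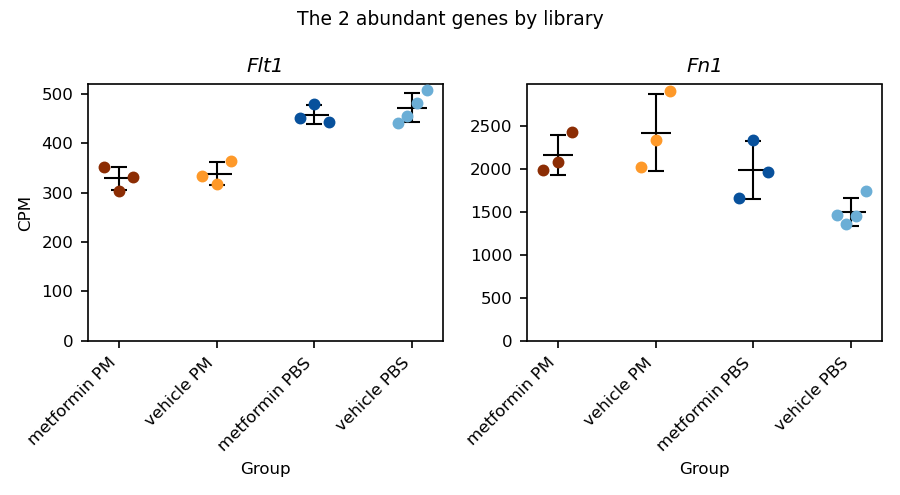
CPM of Flt1 and Fn1 in each library by group, with the group mean (long bar) and SD (error bars). Flt1 was lower in the PM libraries of both arms (304 to 364 CPM) than in the PBS libraries (442 to 509 CPM), and Fn1 was lowest in the vehicle PBS libraries, apart from an overlap of their highest value with metformin PBS 1.

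Fn1 was the other abundant gene. It had 1990, 2080 and 2430 CPM in metformin PM libraries, 2030, 2340 and 2910 CPM in vehicle PM libraries, 1660, 2340 and 1970 CPM in metformin PBS libraries and 1460, 1360, 1450 and 1740 CPM in vehicle PBS libraries. Fn1 was higher with PM on vehicle, by 0.69 (SE 0.113, adjusted p = 0.000721, edgeR), a call that held under all 22 alternatives. On metformin the PM difference was 0.12 (SE 0.121, adjusted p = 0.58), and the difference between the arms was -0.57 (SE 0.165, adjusted p = 0.106), which did not pass. Fn1 shares 292 exon bases with the antisense gene Apol7d, and no strand setting of the counting is given, so part of its count is uncertain.

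Fibroblast genes were few and low. Col1a1 and Col1a2 encode the chains of type I collagen and Col3a1 that of type III. Col1a1 had 4.10, 5.6 and 5.45 CPM in metformin PM libraries, 0.424, 0.933 and 3.09 CPM in vehicle PM libraries, 1.47, 2.23 and 1.85 CPM in metformin PBS libraries and 3.48, 2.98, 1.12 and 1.43 CPM in vehicle PBS libraries. All metformin PM values were above those of the other groups. Col1a1 was higher in metformin PM than in metformin PBS by 1.43 (SE 0.411, adjusted p = 0.0264, edgeR) and than in vehicle PM by 1.80 (SE 0.43, adjusted p = 0.0142). The first call was lost without metformin PBS 1, 3 or 4 or metformin PM 3 or 4 (1.28 to 1.58), the second without vehicle PM 1 or 2 or metformin PM 3 (1.32 to 1.70).

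Col1a2 had 4.72, 4.20 and 6.54 CPM in metformin PM libraries, 1.41, 2.02 and 3.41 CPM in vehicle PM libraries, 2.62, 1.59 and 1.54 CPM in metformin PBS libraries and 3.32, 2.51, 1.28 and 0.893 CPM in vehicle PBS libraries. Again the metformin PM values were the 3 highest. Its differences were 1.41 (SE 0.363, adjusted p = 0.0142, edgeR) against metformin PBS and 1.17 (SE 0.348, adjusted p = 0.0475) against vehicle PM; the first was lost without metformin PBS 3 or 4 or metformin PM 4 (1.21 to 1.29) and the second without any 1 of 8 libraries (vehicle PM 1 or 2, metformin PM 1, 3 or 4, metformin PBS 3 or 4, or vehicle PBS 2; 0.90 to 1.30) and with DESeq2 (adjusted p = 0.0794), and held under 11 of 21 alternatives. Col3a1 had 4.59, 3.57 and 8.09 CPM in metformin PM libraries and 3.77, 1.75 and 1.69 CPM in metformin PBS libraries, which overlap, and was not called at 1.14 (SE 0.472, adjusted p = 0.126). Col6a1 and Col6a2, chains of the beaded type VI collagen, and Pdgfra, the PDGF receptor of alveolar fibroblasts, lay at 1.22, 1.53 and 1.28 without a call. Pdgfrb, the PDGF receptor of pericytes, Fbln1 and Dcn had at most 13, 7 and 6 counts in any library.

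Matrix genes made by both compartments were the third group. Of 9 tested, 8 were higher in metformin PM than in metformin PBS, and Fn1 was the exception. Sparcl1, a secreted SPARC relative, had 6.21, 5.48 and 8.25 CPM in metformin PM libraries, 2.26, 3.27 and 2.93 CPM in vehicle PM libraries, 1.80, 2.71 and 1.54 CPM in metformin PBS libraries and 2.37, 4.23, 1.91 and 3.22 CPM in vehicle PBS libraries. Timp3, an inhibitor of metalloproteinases that binds to the matrix, had 5.96, 6.75 and 7.16 CPM in metformin PM libraries, 1.55, 1.55 and 3.09 CPM in vehicle PM libraries, 2.46, 2.71 and 2.0 CPM in metformin PBS libraries and 3.01, 3.92, 1.28 and 2.32 CPM in vehicle PBS libraries. For both genes the 3 metformin PM libraries stood above the other 10. Sparcl1 was higher in metformin PM by 1.70 against metformin PBS (SE 0.287, adjusted p = 0.000533, edgeR) and by 1.23 against vehicle PM (SE 0.266, adjusted p = 0.00712). Timp3 was higher by 1.46 (SE 0.29, adjusted p = 0.00214) and 1.69 (SE 0.297, adjusted p = 0.00144). These 4 calls held under all 22 alternatives. Timp3 lies within Syn3, with which it shares 1733 exon bases on the opposite strand; the 153 counts given to Syn3 in all libraries stand against 297 for Timp3.

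Bgn encodes biglycan, a small leucine-rich proteoglycan. It had 6.95, 4.33 and 7.63 CPM in metformin PM libraries, 1.55, 2.49 and 3.90 CPM in vehicle PM libraries, 1.15, 2.71 and 2.0 CPM in metformin PBS libraries and 5.70, 4.54, 1.75 and 3.93 CPM in vehicle PBS libraries. Here vehicle PBS 1 and 2 reached into the metformin PM range. The difference from metformin PBS was 1.67 (SE 0.377, adjusted p = 0.00598, edgeR), held under all 22 alternatives, and that from vehicle PM was 1.26 (SE 0.353, adjusted p = 0.036), lost without vehicle PM 1 or 2 or metformin PM 1 or 4 (0.96 to 1.23) and held under 17 of 22 alternatives. Mgp had 4.10, 5.48 and 8.25 CPM in metformin PM libraries, 1.98, 2.64 and 4.39 CPM in vehicle PM libraries, 2.46, 1.59 and 1.54 CPM in metformin PBS libraries and 5.70, 3.76, 2.71 and 1.97 CPM in vehicle PBS libraries. It was called against metformin PBS at 1.64 (SE 0.378, adjusted p = 0.00658), under all 22 alternatives too, and not against vehicle PM at 0.97 (SE 0.341, adjusted p = 0.0945).

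Col4a1 and Col4a2 encode the main chains of the type IV collagen network in basement membranes. The genes lie head to head, Col4a1 at chr8:11198423-11312826 on the minus strand and Col4a2 at chr8:11312805-11449287 on the plus strand of mm10. Their 5′ exons share 22 bases. The promoter windows of this pair are shown with those of Col1a2 and Col3a1, fibrillar collagen genes on different chromosomes, because the pairs are compared across libraries further on. Each window runs from 250 bases before to 50 bases after the start annotated by RefSeq on GRCm38.p6 (chr8:11312777-11313076 minus, chr8:11312555-11312854 plus, chr6:4505368-4505667 plus and chr1:45311288-45311587 plus), and capitals mark each GGGCGG or its reverse complement CCGCCC and each CCAAT or its reverse complement ATTGG.
Col4a1: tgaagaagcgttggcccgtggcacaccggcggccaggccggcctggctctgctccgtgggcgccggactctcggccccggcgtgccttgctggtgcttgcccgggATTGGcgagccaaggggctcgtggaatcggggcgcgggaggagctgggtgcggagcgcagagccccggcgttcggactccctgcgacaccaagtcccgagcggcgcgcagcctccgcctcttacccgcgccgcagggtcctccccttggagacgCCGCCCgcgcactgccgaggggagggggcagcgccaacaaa
Col4a2: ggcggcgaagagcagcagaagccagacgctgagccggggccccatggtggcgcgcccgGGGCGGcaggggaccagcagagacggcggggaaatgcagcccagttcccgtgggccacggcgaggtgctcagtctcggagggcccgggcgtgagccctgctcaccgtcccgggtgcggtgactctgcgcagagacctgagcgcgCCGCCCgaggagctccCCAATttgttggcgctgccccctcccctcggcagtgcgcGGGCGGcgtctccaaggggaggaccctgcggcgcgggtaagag
Col1a2: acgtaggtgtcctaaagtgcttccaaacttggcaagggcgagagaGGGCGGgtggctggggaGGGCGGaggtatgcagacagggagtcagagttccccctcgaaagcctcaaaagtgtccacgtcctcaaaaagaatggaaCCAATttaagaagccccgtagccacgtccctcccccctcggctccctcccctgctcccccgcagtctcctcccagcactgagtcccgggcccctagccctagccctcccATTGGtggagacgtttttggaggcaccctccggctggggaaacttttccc
Col3a1: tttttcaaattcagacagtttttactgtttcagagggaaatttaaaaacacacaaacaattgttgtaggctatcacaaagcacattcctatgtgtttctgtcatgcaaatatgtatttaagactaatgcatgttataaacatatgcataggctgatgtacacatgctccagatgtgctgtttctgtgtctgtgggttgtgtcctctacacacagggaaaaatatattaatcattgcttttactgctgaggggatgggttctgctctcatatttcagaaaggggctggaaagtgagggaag
The Col4a1 window holds 1 GGGCGG and 1 CCAAT, the Col4a2 window 3 and 1, the Col1a2 window 2 and 2, and the Col3a1 window 0 and 0. Of the 32851 promoter windows in the table, 35.7% held GGGCGG and 37.4% held CCAAT on either strand, and the searched words do not overlap in these 4 windows. The Col4a1 and Col4a2 windows share 78 bases, and the annotated starts lie 21 bases apart.

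Col4a1 had 5.96, 8.79 and 10.9 CPM in metformin PM libraries, 2.68, 4.20 and 6.18 CPM in vehicle PM libraries, 2.46, 3.03 and 1.85 CPM in metformin PBS libraries and 5.54, 6.11, 2.55 and 4.11 CPM in vehicle PBS libraries. Col4a2 had 6.70, 8.03 and 8.56 CPM in metformin PM libraries, 2.26, 3.42 and 6.50 CPM in vehicle PM libraries, 3.27, 3.50 and 4.31 CPM in metformin PBS libraries and 3.48, 5.48, 4.94 and 2.86 CPM in vehicle PBS libraries. The metformin PM libraries were the 3 highest for Col4a2, whereas for Col4a1 vehicle PM 3 and vehicle PBS 2 exceeded metformin PM 1. Against metformin PBS, Col4a1 was higher by 1.78 (SE 0.329, adjusted p = 0.00119, edgeR), under all 22 alternatives, and Col4a2 by 1.06 (SE 0.281, adjusted p = 0.0168), lost without metformin PBS 3 or metformin PM 3 or 4 (0.98 to 1.02). Against vehicle PM, Col4a1 was higher by 0.97 (SE 0.291, adjusted p = 0.0494), a call that held under 7 of 22 alternatives. It was lost without vehicle PM 1 or 2, metformin PM 3 or 4, vehicle PBS 2 or 4, or any 1 metformin PBS library (0.70 to 0.97). It was also lost with DESeq2 (adjusted p = 0.067), limma-voom (0.0545), RLE or upper-quartile scaling (0.0503 and 0.0504) and scaling by library totals (0.0519), among others. Col4a2 was higher than in vehicle PM by 0.95 (SE 0.274, adjusted p = 0.0413), a call lost without vehicle PM 1 or 2 or metformin PM 1, 3 or 4 (0.64 to 1.05) and with DESeq2 (0.94, adjusted p = 0.0625).

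Sparc and Igfbp7 completed the called matrix genes. Sparc, a collagen-binding glycoprotein, had 8.56, 9.81 and 12.1 CPM in metformin PM libraries, 4.80, 5.6 and 10.2 CPM in vehicle PM libraries and 5.57, 6.21 and 4.00 CPM in metformin PBS libraries. Its difference from metformin PBS was 0.94 (SE 0.266, adjusted p = 0.0244, edgeR), a call lost without metformin PBS 4 or metformin PM 3 or 4 (0.77 to 0.95). From vehicle PM it differed by 0.57 (SE 0.252, adjusted p = 0.205), which was not called. Igfbp7, a secreted protein of vessel walls that binds insulin-like growth factors, had 2.85, 3.69 and 3.89 CPM in metformin PM libraries and 1.47, 1.59 and 0.924 CPM in metformin PBS libraries, a difference of 1.37 (SE 0.352, adjusted p = 0.0137) that was lost without metformin PBS 4 or metformin PM 3 (1.16 and 1.31). Neither gene's metformin PM values overlapped with those of metformin PBS, but for Sparc vehicle PM 3 lay above metformin PM 1 and 3. Serping1, the C1 inhibitor, was not tested and had 3 to 20 counts per library.

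**Figure D3:**
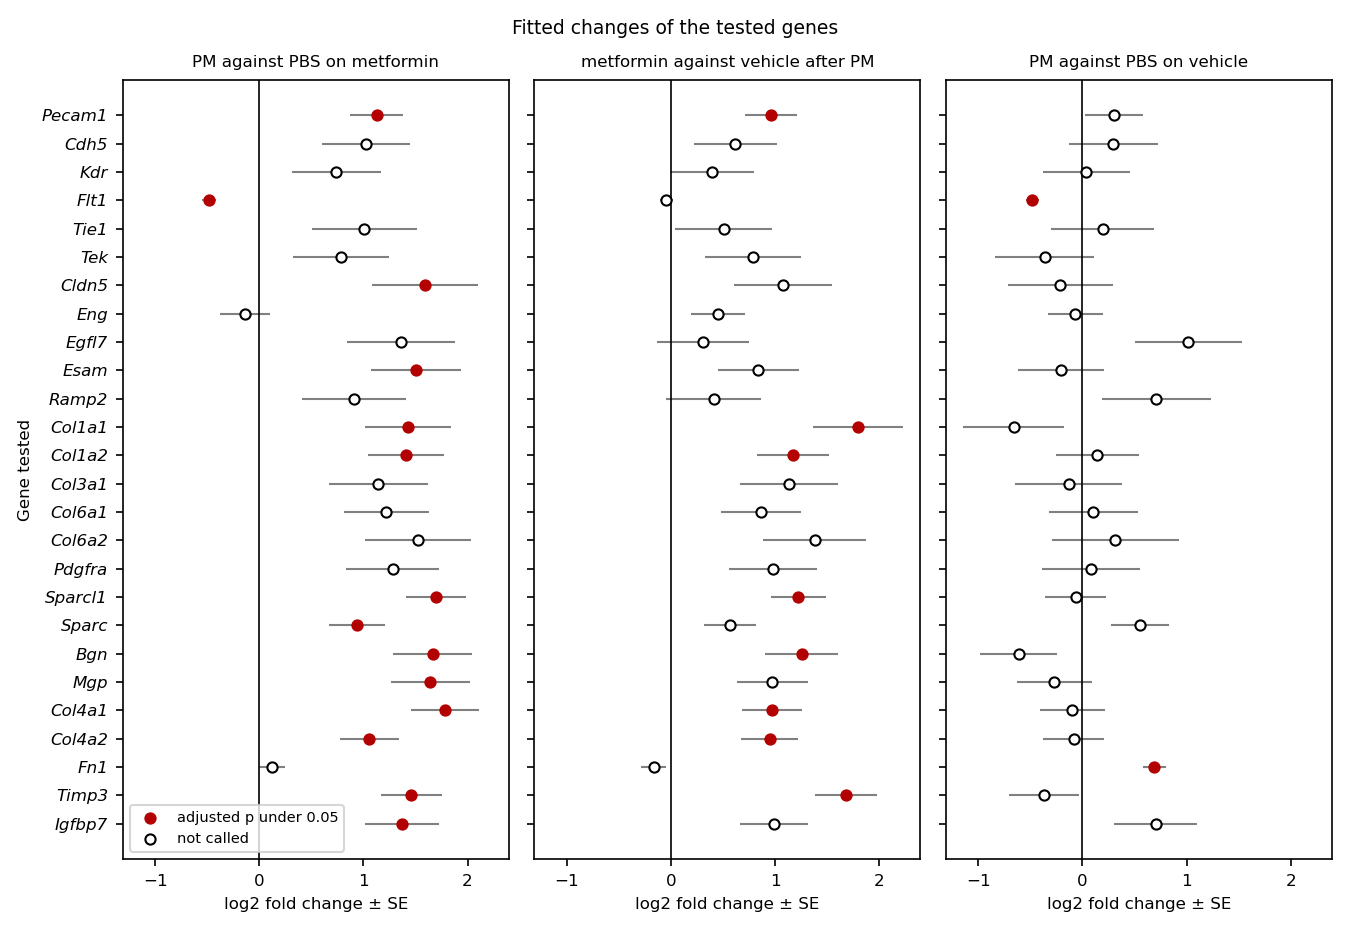
Fitted log2 fold change with SE (bars) of each of the 26 genes tested, in 3 comparisons; filled points are called at an adjusted p under 0.05. In PM against PBS on metformin most points lie right of 0 (median 1.25). They include the 5 genes that passed the filter only through metformin PM. In metformin against vehicle after PM 8 are called higher, and in PM against PBS on vehicle Flt1 and Fn1 are the called genes.

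PM against PBS on vehicle asked what the particles changed without the drug, and it gave another picture. Fn1 was higher and Flt1 lower, as above, and 24 genes were not called, where 2.6% of all genes tested were called higher and 2.26% lower (4.85% in all). Without Flt1 and Fn1, 12 of these fitted differences were positive and 12 negative, with a median of -0.01 and a range of -0.66 (Col1a1) to 1.02 (Egfl7). At an unadjusted p under 0.05 the count was the same 1 higher and 1 lower, as it was with DESeq2. For these settings no share of all genes is given. None of the 24 other genes had groups without overlap, where 7.33% of all genes tested lay wholly above and 7.6% wholly below.

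Metformin against vehicle after PBS asked for an effect of the drug alone. None of the 26 genes was called by edgeR, where 1.13% of all genes tested were called higher and 1.93% lower (3.07% in all). At an unadjusted p under 0.05, 2 were higher and 3 lower, and DESeq2 called 0, with no share of all genes given for these settings. The 3 lower genes were Bgn (-1.02, SE 0.397), Col4a1 (-0.91, SE 0.355) and Mgp (-0.94, SE 0.4), with adjusted p of 0.175, 0.175 and 0.221. The 2 higher genes were Eng (0.52, SE 0.243, adjusted p = 0.266) and Fn1 (0.41, SE 0.113, adjusted p = 0.0562). Fn1 was called without vehicle PBS 4, metformin PBS 1, vehicle PM 1 or vehicle PM 3, at 0.41 to 0.53. In none of the 24 genes other than Flt1 and Fn1 did the groups lie apart, where 6.2% of all genes tested lay wholly above and 7.54% wholly below.

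Metformin against vehicle after PM asked whether the drug changed these transcripts in mice given particles. Of the 26 genes, 8 were higher in metformin PM (Pecam1, Col1a1, Col1a2, Sparcl1, Bgn, Col4a1, Col4a2 and Timp3) and 0 were lower. Over all genes tested, 4.08% were called higher and 2.81% lower (6.89% in all). At an unadjusted p under 0.05 the numbers among the 26 were 17 and 0, and DESeq2 called 4 and 0. For these settings no share of all genes is given, and the 17 include Esam, Col6a1 and Col6a2, whose selection favours that direction. Of these 8, 2 were still called without vehicle PM 1 or vehicle PM 2, 5 without metformin PM 1 and 3 without metformin PM 3 or 4. Sparcl1 and Timp3 alone were called under all 22 alternatives. The median over the 26 was 0.96, against -0.00396 over all genes tested, and all 24 genes other than Flt1 and Fn1 had a positive fitted value, from 0.31 (Egfl7) to 1.80 (Col1a1). These values include the 5 genes whose selection favours that direction. In 11 of the 24 genes every metformin PM library lay above every vehicle PM library and in 0 below, where 13.4% of all genes tested lay wholly above and 13.1% wholly below. Among the 19 genes that pass the filter without the metformin PM libraries too, it was 10. Between metformin PM and metformin PBS the number was 18 of 24, where 16.1% of all genes tested lay wholly above and 13.9% wholly below; 5 of the 18 were the genes that passed the filter only through metformin PM, and among the other 19 genes it was 13.

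The difference of the PM effects tests directly whether the particles changed a gene more on metformin than on vehicle. It was called for 4 of the 26 genes, all matrix genes, where 0.89% of all genes tested were called higher and 0.546% lower (1.44% in all). They were Sparcl1 (1.76, SE 0.417, adjusted p = 0.0372, edgeR), Bgn (2.28, SE 0.531, adjusted p = 0.0347), Col4a1 (1.88, SE 0.459, adjusted p = 0.0442) and Timp3 (1.83, SE 0.448, adjusted p = 0.0449). No endothelial gene and no fibroblast or mural gene was called, but the fitted difference was positive in 9 of 11 and 6 of 6 of them. Col1a1 (2.09, SE 0.636, adjusted p = 0.128, edgeR) and Cldn5 (1.80, SE 0.726, adjusted p = 0.309) lay as high as the called genes. Both were called without a filter on low counts. At an unadjusted p under 0.05 there were 11 higher and 1 lower of 26, and DESeq2 called 4 and 0. For these settings no share of all genes is given, and the 11 include Esam, whose selection favours that direction. Of the 4, 0 were still called without metformin PM 4, vehicle PM 1 or 2, metformin PBS 1 or 4 or vehicle PBS 2. Without metformin PM 1 the call of Col4a1 was left, and without vehicle PBS 1 that of Sparcl1. Without metformin PM 3 or metformin PBS 3, 2 were left (Sparcl1 and Bgn), without vehicle PM 3 all but Sparcl1, and without vehicle PBS 3 or 4 all 4. With limma-voom 0 of the 4 were called (adjusted p = 0.0528 to 0.0779). The calls held under 9 (Timp3) to 12 (Sparcl1) of 21 alternatives. For Bgn and Col4a1 the low values of metformin PBS enter the difference as well as the high ones of metformin PM.

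**Figure D4:**
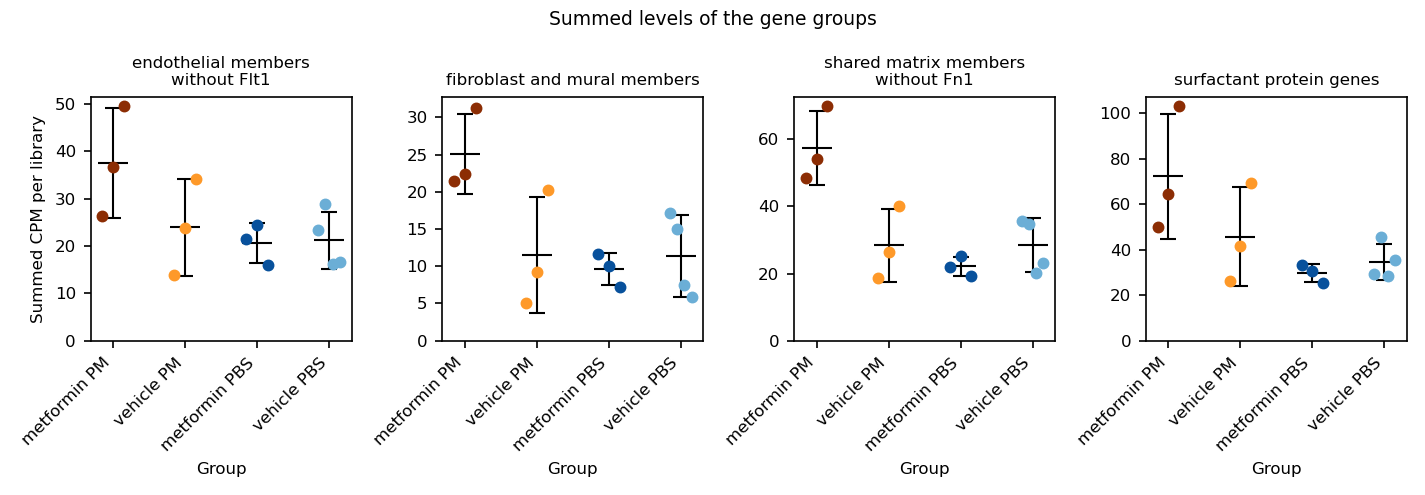
Summed CPM of the gene groups in each library (points) with the group mean (long bar) and SD (error bars), each axis starting at 0. Metformin PM libraries are the 3 highest for fibroblast and mural genes (21.5 to 31.3 CPM) and for matrix genes without Fn1 (48.5 to 69.9 CPM). For endothelial genes without Flt1, vehicle PM 3 (34.1 CPM) and vehicle PBS 2 (28.8 CPM) lie above metformin PM 1 (26.4 CPM). For surfactant genes the metformin PM libraries overlap with vehicle PM 3.

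The gene groups were compared as summed levels, which are descriptions with no test. Endothelial genes without Flt1 averaged 37.6 ± 11.6 CPM in metformin PM, 23.9 ± 10.1 in vehicle PM, 20.7 ± 4.31 in metformin PBS and 21.2 ± 6.04 in vehicle PBS (SD, n = 3, 3, 3 and 4). Fibroblast and mural genes averaged 25.1 ± 5.41, 11.5 ± 7.80, 9.63 ± 2.22 and 11.4 ± 5.51 CPM in the same order of groups. Matrix genes without Fn1 averaged 57.5 ± 11.1, 28.4 ± 10.8, 22.1 ± 2.97 and 28.5 ± 8.0 CPM. In all 3 sums the order within metformin PM was library 4, then 3, then 1, and within vehicle PM library 3, then 2, then 1, while vehicle PBS 1 and 2 lay above vehicle PBS 3 and 4.

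Single genes followed the same libraries. Of the 29 genes other than Flt1 and Fn1 with a count, 24 had their highest level in a metformin PM library, and for 20 of them it was metformin PM 4. Among the 24 tested genes other than Flt1 and Fn1 the number was 21, where 23.3% of all genes tested had their highest level in a metformin PM library. These 24 include the 5 genes that passed the filter only through metformin PM, for which a high value there is built into the selection. Of the 29 genes, 5 peaked in another group: vehicle PM 3 (Egfl7, Pdgfrb and Fbln1), vehicle PM 2 (Ramp2) and metformin PBS 1 (Eng). For 8 genes the metformin PM libraries were the 3 highest of 13 (Pecam1, Col1a1, Col1a2, Col6a2, Sparcl1, Col4a2, Timp3 and Igfbp7), where this held for 3.94% of all genes tested; Col6a2 is 1 of the 5 genes that passed the filter only through metformin PM. Metformin PM 4 was not the deepest library of its group.

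Across the 13 libraries the genes moved together. Over the 276 pairs of the 24 genes tested other than Flt1 and Fn1, the median Spearman correlation of log2 CPM was 0.676, and 275 pairs were positive; over all pairs of all genes tested the median was 0. The points share their treatment within a group, so the same was computed on deviations from the group means. There the median was 0.588 with 273 pairs positive. Of the 24 genes, 5 passed the filter only through metformin PM, so a shared peak there is built into the values across the 13 libraries. No correlation was computed without these 5 genes. Correlations between compartments were not below those within the endothelial list. The median was 0.64 over the 140 pairs of an endothelial and a stromal or matrix gene, 0.505 over the 45 endothelial pairs, 0.808 over the 15 fibroblast and mural pairs and 0.69 over the 28 matrix pairs. On deviations from group means these medians were 0.56, 0.478, 0.736 and 0.599. These values describe 13 libraries with few counts per gene.

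Pairs that are made as partners did not always exceed this. Col1a2 and Col3a1, on different chromosomes, correlated at 0.94 (0.989 on deviations), with a count ratio of 0.696 to 1.25 between libraries. Col1a1 and Col1a2, partners in type I collagen, correlated at 0.846 (0.714), with a count ratio of 0.3 to 1.6. The head-to-head genes Col4a1 and Col4a2 correlated at 0.692 (0.429), and Pecam1 and Cdh5 at 0.462 (0.396). All values are over 13 libraries.

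Flt1 did not follow this pattern, and Fn1 followed it more weakly. Flt1 against the 24 genes had a median correlation of -0.462 over the 13 libraries and of 0 on deviations from group means. Of its 24 values, 1 and 12 were positive. Fn1 had 0.379 and 0.302, with 24 and 21 values positive. Vwf, the gene of von Willebrand factor, belongs to a wider endothelial list described below. It was also weaker, at 0.291 and 0.236, with 23 and 19 values positive. Its single values over the 13 libraries ran from -0.44 to 0.533, so the shared movement did not extend evenly to every endothelial transcript. Siglecf, the surface lectin by which alveolar macrophages are recognised, had -0.272 and 0.19.

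Surfactant protein genes moved with these genes, but the summed level of the whole epithelial list did not. That list stood at 0.809 times its PBS mean with PM on metformin and 0.877 times on vehicle. The surfactant genes were grouped after their values were seen. The 4 surfactant protein genes (Sftpa1, Sftpb, Sftpc and Sftpd), products of alveolar type II cells, summed to 49.8, 64.3 and 103 CPM in metformin PM libraries, 26.3, 41.5 and 69.3 CPM in vehicle PM libraries, 33.2, 30.6 and 25.3 CPM in metformin PBS libraries and 29.3, 45.4, 28.2 and 35.6 CPM in vehicle PBS libraries. Metformin PM 4 and vehicle PM 3 were the 2 highest. Sftpc, read in every library, correlated with the 24 genes at a median of 0.731 (0.629 on deviations), and all 24 values were positive. Of the whole list of 25 epithelial genes, 16 were tested. Unlike the sum, most single fitted differences were positive with PM on metformin, 12 against 4 negative (median 0.379). For metformin PM against vehicle PM, 11 were positive and 5 negative (median 0.154). With PM on metformin 5 were higher and 2 lower, where 7.18% of all genes tested were called higher and 5.6% lower. Among the higher were Sftpa1 (1.51, SE 0.328, adjusted p = 0.00422, edgeR) and Sftpc (1.23, SE 0.273, adjusted p = 0.00502). Among the lower was Krt19 (-0.53, SE 0.0762, adjusted p = 9.93e-05). The list summed to 873 to 1030 CPM in metformin PM, 966 to 975 CPM in vehicle PM, 1080 to 1230 CPM in metformin PBS and 1070 to 1130 CPM in vehicle PBS, and none of its genes was at 0 in all libraries. The part of such cells in the levels above was not tested.

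The ratio between compartments was not the same in every library. Stromal and matrix genes without Fn1 stood at 2.04 to 2.65 times the endothelial genes without Flt1 in metformin PM libraries, 1.49 to 1.77 times in vehicle PM libraries, 1.44 to 1.65 times in metformin PBS libraries and 1.72 to 2.27 times in vehicle PBS libraries. The metformin PM ratios lay above those of vehicle PM and metformin PBS and overlapped with vehicle PBS 1 at 2.27. The surfactant genes stood at 1.75 to 2.08 times the endothelial genes in metformin PM libraries, 1.75 to 2.03 times in vehicle PM libraries, 1.25 to 1.58 times in metformin PBS libraries and 1.26 to 2.14 times in vehicle PBS libraries. These ratios come from sums with 93 to 319 endothelial counts per library, and no test was made on them.

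**Figure D5:**
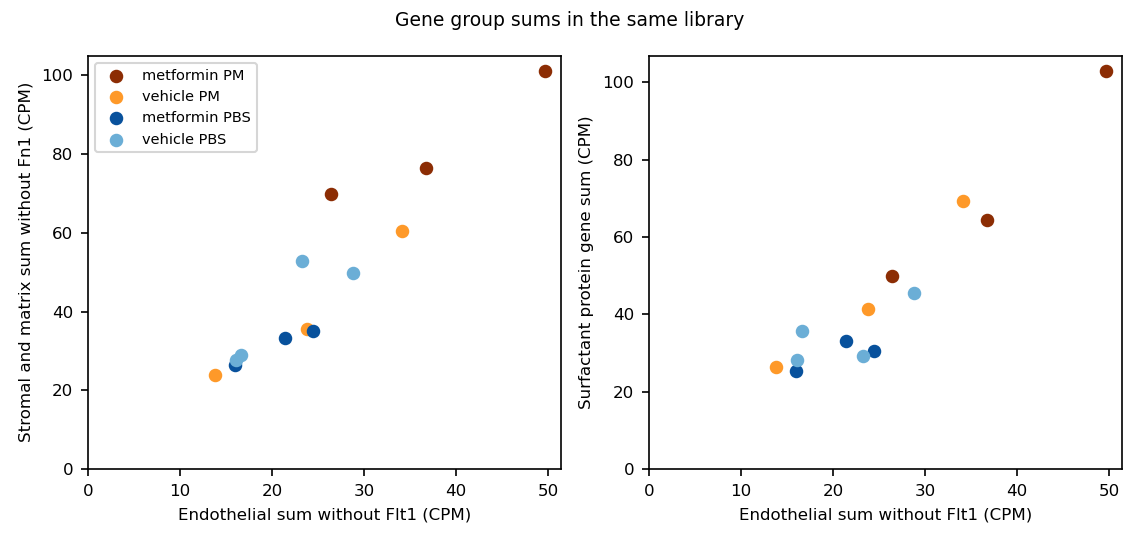
Each point is 1 of the 13 libraries, coloured by group. The horizontal axis is the summed CPM of the endothelial genes without Flt1, and the vertical axis is the summed CPM of stromal and matrix genes without Fn1 (left) or of the 4 surfactant protein genes (right). Libraries with more endothelial counts also had more of the other groups, and the metformin PM libraries (endothelial sums of 26.4 to 49.6 CPM) reach furthest to the upper right.

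Other genes of the same compartments were counted from a wider list. Whether they pass the filter without the metformin PM libraries was not examined. With PM on metformin 7.18% of all genes tested were called higher and 5.6% lower, and with PM on vehicle 2.6% and 2.26%. The further endothelial genes summed to a mean of 656 CPM in metformin PM against 539 CPM in metformin PBS. For the further fibroblast and mural genes these means were 92.3 and 55.8 CPM. Of 28 further endothelial genes, 17 were tested, and with PM on metformin 7 were higher and 1 was lower: Thbd, which encodes thrombomodulin, rose by 0.44 (SE 0.105, adjusted p = 0.0083, edgeR), Vwf, which encodes von Willebrand factor, by 0.28 (SE 0.0756, adjusted p = 0.0177), and Acvrl1, which encodes the endothelial BMP receptor ALK1, stood at -0.31 (SE 0.0713, adjusted p = 0.00663). On vehicle, Vwf was higher with PM by 0.39 (SE 0.07, adjusted p = 0.00168) and Acvrl1 stood at -0.31 (SE 0.0676, adjusted p = 0.00753), so these 2, like Flt1 and Fn1, were called in the arm where none of the 24 low genes was. Of 36 further fibroblast and mural genes, 14 were tested and 5 were higher with PM on metformin, led by Ltbp4, a latent TGF-beta binding protein (1.71, SE 0.255, adjusted p = 0.000155), Postn, which encodes periostin (2.49, SE 0.555, adjusted p = 0.00534), and Npnt, which encodes nephronectin (1.51, SE 0.403, adjusted p = 0.0171). Ltbp4 was also higher in metformin PM than in vehicle PM by 1.41 (SE 0.242, adjusted p = 0.00116), and the difference of its PM effects was 1.83 (SE 0.379, adjusted p = 0.015). On vehicle, Cspg4, which encodes the pericyte proteoglycan NG2, was the called gene of this list, higher with PM by 1.59 (SE 0.181, adjusted p = 1.39e-05).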

How the data were processed

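Raw read counts per gene for 13 libraries were used as deposited by the authors, in a single table with 1 column per library, per the file headers. By the submitters' processing notes the tools were bcl2fastq 2.19, TopHat2, HTSeq and edgeR, with the build mm10; annotation release and strand setting are not given in the sources used here. The deposited gene positions served for coordinates. The deposited gene length (69459 for Fn1) was not used, because it exceeds the union of exons (11685 in GENCODE M21), from which RPKM was computed. Gene identifiers were matched to symbols through a name table (42462 of 43430).

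Fits used R 4.3.3 and edgeR 4.0.16 on all 13 libraries with 1 coefficient per group, TMM scaling (factors 0.98648 to 1.0166) and filterByExpr (1.57 CPM in at least 3 libraries; 11906 genes kept), then the quasi-likelihood F test with Benjamini-Hochberg adjustment over all genes tested, called under 0.05. There were 9 residual degrees of freedom. The SE is the size of the log2 fold change divided by the square root of F. The labels call the samples biological replicates; where they do not come from separate mice, p-values measure only the spread between these samples. Within groups no pair of libraries agreed within sampling noise (chi-square over degrees of freedom of 2.08 to 6.30). The scripts were tested on simulated counts.

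Correlations used log2 CPM with a prior count of 2. Alternatives were limma-voom (limma 3.58.1), DESeq2 1.42.0, other scalings and filters, a fit on the compared groups alone, a replicate block and leaving out each library; of these, 22 gave a value for a gene with all of them. Sums and correlations without Flt1 and Fn1, and correlations of deviations from group means, were added after seeing the data. The genes and the marker lists were chosen with earlier results of these data known. All 32 genes are named, and from each other list up to 3 called genes per comparison with the lowest adjusted p; for those the alternatives were not run. Surfactant genes were grouped after their values were seen. Without a stated strand, counts of overlapping genes are uncertain: besides Fn1, Timp3 and the Col4a1 and Col4a2 pair, Ramp2 shares 1103 exon bases with Vps25, Pdgfra 456 with an antisense gene, Igfbp7 85 with Polr2b, Egfl7 64 with Agpat2 and Eng 61 with Fpgs. Promoter windows were found for 20 of the 32 genes in the RefSeq table.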

Additional observations from a re-analysis of the deposited data

Results flagged for a closer look

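For 4 genes the response to particles was not the same with and without the drug, by the test of that difference in edgeR. The effect on metformin minus that on vehicle was 1.76 for Sparcl1, 2.28 for Bgn, 1.88 for Col4a1 and 1.83 for Timp3 on the log2 scale (adjusted p = 0.0372, 0.0347, 0.0442 and 0.0449). PM on metformin gave 1.70, 1.67, 1.78 and 1.46 for these genes, and PM on vehicle gave -0.06, -0.61, -0.10 and -0.37, none of them called. Each of the 4 calls was lost without at least 8 of the 13 libraries taken singly, at values of 1.52 to 2.29. None of 37 quantities examined in the vehicle PBS libraries had a library far from the other 3.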

How the results depend on the processing

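Directions of the called genes did not turn under any alternative that gave a value. For PM against PBS on vehicle, Flt1 and Fn1 stayed the 2 called genes in every fit, and the count over all genes was 359 to 645 with 1 library left out (578 with all; 359 without vehicle PM 2). For PM against PBS on metformin, the number called, 14, became 9 with a filter of 5 CPM in 3 libraries, which leaves 12 of the genes in the test, and 8 to 16 with 1 library left out; over all genes the range was 884 to 1666 (1522 with all; 895 without metformin PBS 3, 964 without metformin PBS 4, 884 without metformin PM 3). For metformin against vehicle after PBS, the number called, 0, became 4 without a filter, 1 (Fn1) with the replicate block, 1 with the groups compared alone and 0 to 1 with 1 library left out; over all genes 365 became 813 without a filter, 200 with the groups compared alone and 121 to 503 with 1 library left out. For metformin against vehicle after PM, the number called, 8, became 4 with DESeq2, which gave an adjusted p for 15 of the genes, 13 without a filter, 4 with the replicate block, all among the 8, and 2 to 10 with 1 library left out; over all genes 820 became 535 with the replicate block and 419 to 954 with 1 library left out. For the difference of the PM effects, the number called, 4, became 0 with limma-voom, 9 without a filter, 2 with the replicate block (Sparcl1, which is 1 of the 4, and Fn1, lower) and 0 to 6 with 1 library left out; over all genes 171 became 507 without a filter and 113 to 262 with 1 library left out. The causes of these shifts were not tested beyond the number of genes or samples that each setting leaves. The summed endothelial level was 366, 362, 479 and 493 CPM in metformin PM, vehicle PM, metformin PBS and vehicle PBS with Flt1, and 37.6, 23.9, 20.7 and 21.2 CPM without it; the summed matrix level was 2220, 2460, 2010 and 1530 CPM with Fn1, and 57.5, 28.4, 22.1 and 28.5 CPM without it. With the replicate block, Pecam1, Col1a2, Bgn and Col4a1 lost their call against vehicle PM (adjusted p = 0.0961, 0.111, 0.101 and 0.09), and Bgn, Col4a1 and Timp3 theirs in the difference of the PM effects (0.056, 0.0525 and 0.0617). Replicate numbers did not pair the libraries: deviations from group means of same-numbered libraries correlated at -0.102 to 0.116 (median -0.00164), those of other numbers at -0.143 to 0.141. No gene here other than Flt1 and Fn1 had over 78 counts in a library, so counting error limits each single value.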

Other observations

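Lyve1 and Stab1, which mark interstitial macrophages and also lymphatic or sinusoidal endothelium, were higher in metformin PM. Against metformin PBS, Lyve1 stood at 1.23 (SE 0.323, adjusted p = 0.0161, edgeR) and Stab1 at 1.30 (SE 0.404, adjusted p = 0.04); against vehicle PM they stood at 1.64 (SE 0.34, adjusted p = 0.00532) and 1.35 (SE 0.403, adjusted p = 0.0488). On vehicle the PM differences were 0.46 and -0.26 without a call. The differences between the PM effects, 0.77 (SE 0.564) and 1.55 (SE 0.616), were not called. In the same list of 17 monocyte and interstitial macrophage genes, 9 were tested. With PM on metformin 6 were called higher and 0 lower, where 7.18% of all genes tested were called higher. On vehicle it was 4 and 0, where 2.6% were called higher. Against vehicle PM only Lyve1 and Stab1 were called, where 4.08% were called higher, and 6 fitted values were positive and 3 negative (median 0.167). The summed level of the 17 genes was 66.3 to 84.2 CPM in metformin PM, 54.4 to 84.4 CPM in vehicle PM, 28.8 to 29.6 CPM in metformin PBS and 31.3 to 34.7 CPM in vehicle PBS. Mmp14, a membrane-bound metalloproteinase that cleaves collagen, was higher with PM by 4.42 on metformin (SE 0.404, adjusted p = 6.25e-07) and by 4.71 on vehicle (SE 0.396, adjusted p = 3.49e-07).

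The mesothelial, lymphocyte, and erythroid and platelet lists gave few counts. Mesothelial genes summed to 0.255 to 1.12 CPM in metformin PM and at most 0.478 CPM in the other groups, and erythroid and platelet genes to at most 1.75 CPM in any library; none of either list was tested. Of 15 lymphocyte genes 2 were tested, Igkc and Jchain, and both were higher with PM in both arms. Of all genes tested, 7.18% were called higher with PM on metformin and 2.6% on vehicle. Of 10 neutrophil genes 4 were tested, and the summed level of all 10 was 65.8 to 66.0 CPM in metformin PM, 58.5 to 65.2 CPM in vehicle PM, 61.9 to 65.1 CPM in metformin PBS and 65.8 to 82.7 CPM in vehicle PBS.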
